A study of Saccharomyces cerevisiae with 2 samples.

Results

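Upper glycolysis, the glycolytic reactions from glucose to the triose phosphates, was followed through the transcripts of its 9 enzyme genes in Saccharomyces cerevisiae. The genes were taken by name: the glucose phosphorylating enzymes HXK1, HXK2, GLK1 and EMI2, the isomerase PGI1, the phosphofructokinase subunits PFK1 and PFK2, the aldolase FBA1 and the triose phosphate isomerase TPI1. All 9 were found, of 5659 genes listed over both tables, and all 9 passed the filter used for comparisons, a mean of at least 1 RPKM (reads per kilobase of coding length and per M, or mega, reads), which 5532 genes passed. RNA from ZTW1, a wild type bioethanol strain, and from ZGR3, a mutant with ZTW1 as its genetic background, was sequenced with 1 library per strain. The change that makes ZGR3 a mutant is not given in the labels. Each strain was cultured in 25 mL of YPD, with glucose and peptone at 20 g/L and yeast extract at 10 g/L, starting at an OD600 of 0.05, and was sampled on entry into early stationary phase.

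In the pathway, hexokinase and glucokinase trap glucose as glucose 6-phosphate, phosphoglucose isomerase turns it into fructose 6-phosphate, and phosphofructokinase commits it as fructose 1,6-bisphosphate. Aldolase then splits that sugar into dihydroxyacetone phosphate and glyceraldehyde 3-phosphate, which triose phosphate isomerase interconverts. In yeast on plentiful glucose Hxk2 is known as the main sugar kinase and also takes part in glucose repression, while HXK1 and GLK1 are known to be turned up when glucose runs out.

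The tables held 4.66 M assigned reads for ZTW1 and 4.61 M for ZGR3, with a median of 190 and 185 reads over genes with reads. The 9 genes took 2.17% of the ZTW1 reads and 2.33% of the ZGR3 reads. With 1 library per strain there is no replicate check and no test. Folds are of reads per total reads and carry exact 95% intervals, which cover counting error only and compare the libraries, not the strains. RPKM values are relative to the reads of a library, so total RNA per cell was not measured.

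The 9 genes spanned a wide range of levels, and the order was nearly the same in both libraries. FBA1 was at 10571 RPKM in ZTW1 and 11797 in ZGR3, and ranked 8 and 6 among the genes compared. GLK1 followed at 2666 and 2453 RPKM, then TPI1 at 1818 and 1780 and PGI1 at 1591 and 1732. PFK2 and PFK1 lay lower, and EMI2, HXK1 and HXK2 were the lowest. HXK2 was at 18.4 RPKM in ZTW1 and 14.7 in ZGR3, below the median of 32.6 and 31.8 RPKM over the genes compared. The 1 change of order was between EMI2 and HXK1, with HXK1 the lower in ZTW1 and the higher in ZGR3.

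**Figure D1:**
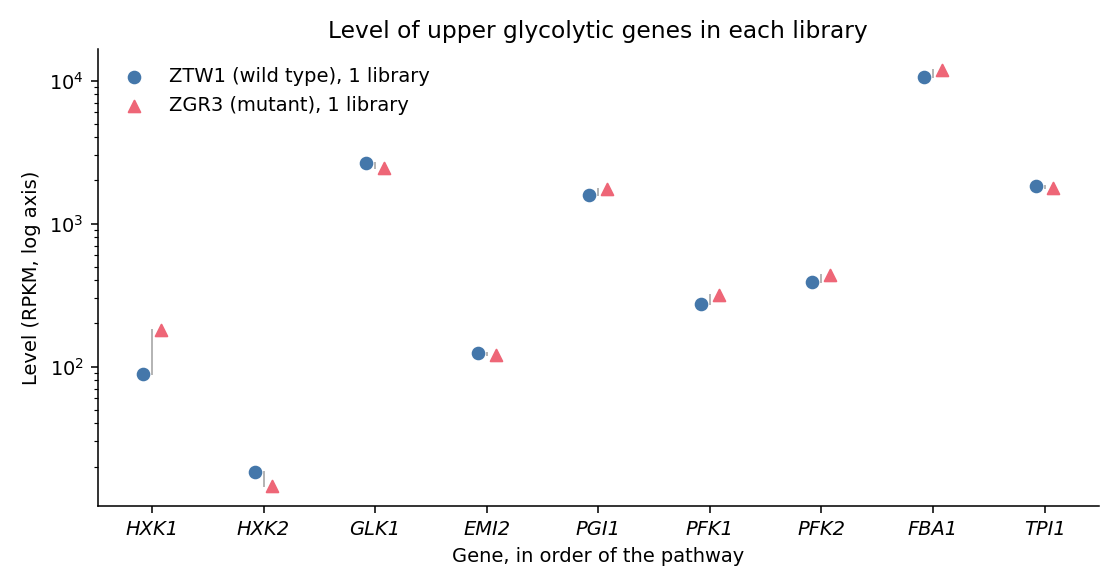
Level of each gene in RPKM, on a log axis, in the ZTW1 library (circles) and the ZGR3 library (triangles); there are no replicates and no error bars. The levels run from 14.7 RPKM for HXK2 in ZGR3 to 11797 for FBA1 in ZGR3, and HXK1 has the widest gap between the libraries.

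HXK1 alone of the 9 was at least 2-fold apart between the libraries. On the log2 ratio of RPKM + 1, ZGR3 over ZTW1, which is the scale used for size below, HXK1 was at 1.01. With 5 RPKM added in place of 1 it was at 0.98, and then none of the 9 genes reached 2-fold. No member was 2-fold lower. Of all 5532 genes compared, 0.542% reached 2-fold on the higher side in ZGR3 and 1.92% on the lower side. HXK1 ranked 30 among the 30 genes that were 2-fold higher, so it lay at the edge of the rule. The other 8 genes lay between −0.30 and 0.21, and none of them was 1.5-fold apart, a size that 3.63% of genes reached on the higher and 7.39% on the lower side. The median over the 9 genes was 0.12, beside −0.02 over all genes compared, and 5 members were above 0 and 4 below. Of all genes compared, 2658 were above 0 and 2874 below, so the members' split was close to that of all genes.

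The counting interval of the fold lay above 1 for 5 members (HXK1, PGI1, PFK1, PFK2 and FBA1) and below 1 for GLK1. Over all genes compared it lay above 1 for 17.9% and below 1 for 19.8%. All members except HXK2 had at least 605 reads in each library, above the median gene, and more reads give narrower intervals.

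**Figure D2:**
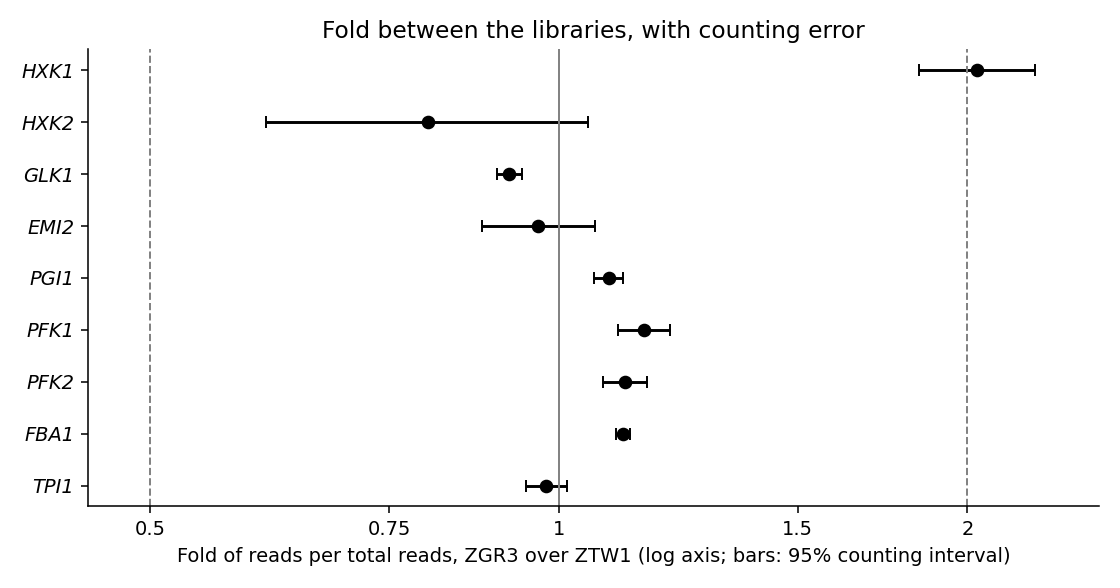
Fold of reads per total reads, ZGR3 over ZTW1, on a log axis for each gene, with bars for the exact 95% counting interval; the solid line marks equality and the dashed lines 2-fold. HXK1 sits at 2.03 with an interval across the 2-fold line, and the intervals of HXK2, EMI2 and TPI1 cross equality.

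**Figure D3:**
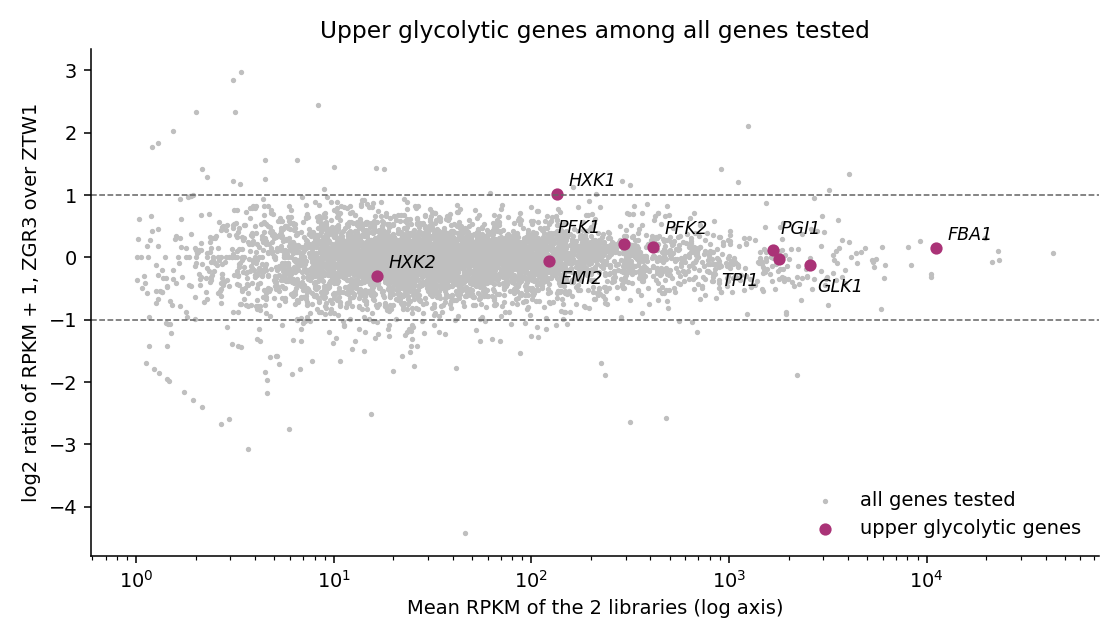
The log2 ratio of RPKM + 1, ZGR3 over ZTW1, against the mean RPKM of both libraries (log axis) for the 5532 genes compared (grey) and the 9 members (coloured, named); dashed lines mark 2-fold. HXK1 lies on the upper 2-fold line at 1.01 and the other members lie between −0.30 and 0.21.

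Glucose phosphorylation is the step with several enzymes, and GLK1, the glucokinase, held most of its transcripts in both libraries. HXK1, hexokinase isoenzyme 1, took a larger part of the step in ZGR3, and HXK2, hexokinase isoenzyme 2, the smallest part in both. The 4 coding sequences resemble each other, so the closest stretches of each paralog pair are shown first, since they decide whether a read can be placed. Genes with a single read had a median of 49 bases covered, and 49 bases was taken as the span of a read. In RefSeq assembly R64, none of the 49-base windows of the 9 coding sequences occurred anywhere else in the genome, on either strand. HXK1 and HXK2 are 77.8% identical over 1458 aligned bases, and their closest windows, the first 49 bases of each, differ at 3 positions, shown in capitals:

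HXK1: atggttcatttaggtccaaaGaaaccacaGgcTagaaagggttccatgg
HXK2: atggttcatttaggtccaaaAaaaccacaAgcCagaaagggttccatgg

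GLK1 and EMI2, which encodes a paralog of glucokinase, are 69.0% identical. Their closest windows, bases 1273 to 1321 of both coding sequences, differ at 7 positions, again in capitals:

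GLK1: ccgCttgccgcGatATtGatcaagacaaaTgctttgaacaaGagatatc
EMI2: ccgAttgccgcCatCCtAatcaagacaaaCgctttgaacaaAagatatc

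A hexokinase gene and a gene of the glucokinase pair were at most 61.1% identical, with at least 14 differences in the closest window. No window of these pairs was within 2 mismatches of its partner. These letters are from R64 and not from the sacCer2 build of the tables or the genome of ZTW1, and the mismatch limit of the authors' alignment was not given in the sources used here.

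GLK1 was counted with 18679 reads in ZTW1 against 16993 in ZGR3. That was 92.0% of the summed RPKM of the step in ZTW1 (95% counting interval 91.6 to 92.4) and 88.6% in ZGR3 (88.1 to 89.0). GLK1 itself was 1.09-fold lower in ZGR3 (1.06 to 1.11), a log2 ratio of −0.12. The reads covered 96.1% of GLK1 in both libraries. Among 15 genes whose reads in ZTW1 and length both lay from 20% below to 25% above its own, the median coverage was 99.9%, and 6.67% of them were below GLK1. In ZGR3 the median over 9 such genes was 99.8%, and GLK1 was below each of them. Coverage of EMI2, PFK1, PFK2, FBA1 and TPI1 lay between 98.6% and 99.9%. The RPKM of GLK1 was 30.0 times that of HXK1 in ZTW1 and 13.6 times in ZGR3, so glucokinase transcripts outnumbered those of HXK1 in both libraries by over 10-fold.

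HXK1 was counted with 605 reads in ZTW1 against 1216 in ZGR3, at 89.0 and 181 RPKM, and was 2.03-fold higher in ZGR3 (1.84 to 2.24). Its share of the step was 3.07% in ZTW1 (2.84 to 3.32) and 6.53% in ZGR3 (6.19 to 6.90). The reads covered 98.6% of its length in both libraries. Of the 11 genes compared around it, at the right end of chromosome VI, none was as high as HXK1, and their median log2 ratio was −0.13. The ratio of HXK1 to each other kinase gene within a library does not depend on the scaling between libraries. The ratio of HXK1 to HXK2 was 4.85 in ZTW1 and 12.3 in ZGR3, 2.54-fold higher (1.90 to 3.40). The ratio of HXK1 to GLK1 was 2.21-fold higher (1.998 to 2.45) and that of HXK1 to EMI2 2.10-fold higher (1.83 to 2.42). All 3 intervals lay above 1, and all 3 ratios share the reads of HXK1.

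EMI2 was counted with 873 reads in ZTW1 against 834 in ZGR3, at 125 and 120 RPKM. Its share was 4.30% in ZTW1 (4.03 to 4.59) and 4.35% in ZGR3 (4.07 to 4.65). The fold of EMI2 had an interval from 0.877 to 1.06, so no difference could be detected at this depth. The ratio of GLK1 to EMI2 was 21.4 in ZTW1 and 20.4 in ZGR3, and the interval of its change, 0.863 to 1.05, held 1.

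HXK2 was counted with 125 reads in ZTW1 against 99 in ZGR3, the fewest of the 9 genes, and made up 0.633% of the step in ZTW1 (0.532 to 0.754) and 0.531% in ZGR3 (0.436 to 0.646). Its fold of 0.801 had an interval from 0.609 to 1.05, and no difference was detectable at this depth. The reads covered 85.7% of the gene in ZTW1 and 96.8% in ZGR3. Among 217 genes like it in reads and length by the same limits, the median coverage was 92.5%, and 12.9% of them were below HXK2. In ZGR3 the median over 192 such genes was 89.0%, so HXK2 was below the median of its like genes in ZTW1 and above it in ZGR3. Of the 6 pairs among the 4 kinase genes, the 3 with HXK1 had intervals that excluded an unchanged ratio and the 3 without it did not. The 3 with HXK1 share its reads, so they restate its fold and are not separate observations. The hexokinase-like gene YLR446W, outside the 9, was at 20.3 RPKM in ZTW1 and 18.3 in ZGR3, close to the level of HXK2.

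**Figure D4:**
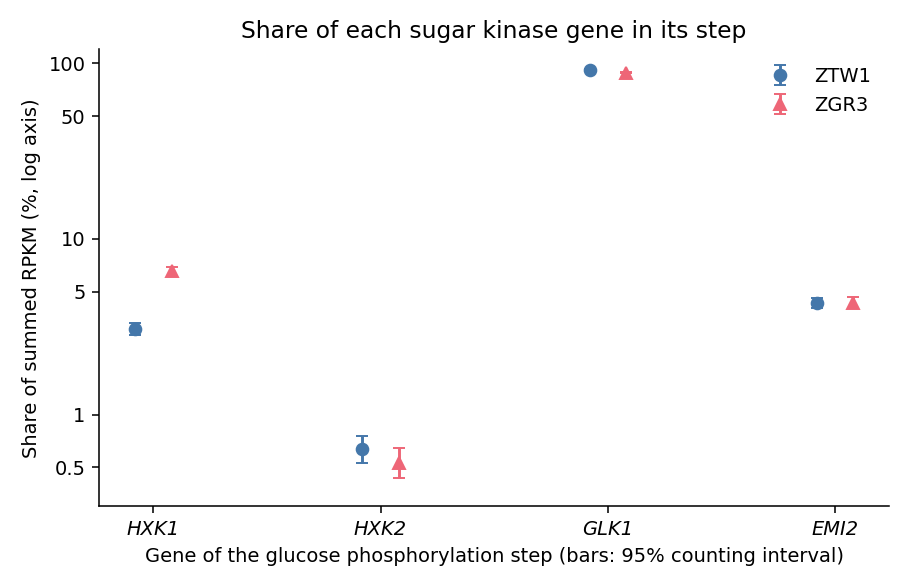
Share of each gene in the summed RPKM of the glucose phosphorylation step, in percent on a log axis, for ZTW1 (circles) and ZGR3 (triangles), with 95% counting intervals as bars. The HXK1 share goes from 3.07% to 6.53% and the GLK1 share from 92.0% to 88.6%, while the intervals of HXK2 and of EMI2 overlap.

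Summed over the 4 genes, the step was at 2898 RPKM in ZTW1 against 2769 in ZGR3, and its log2 ratio was −0.07. The sum was 0.955-fold in ZGR3 (0.937 to 0.974), with GLK1 lower by more RPKM than HXK1 was higher.

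The stretch before each kinase gene is shown next, and whether its motifs relate to the levels of the paralogs was not tested. Each window runs from 250 bases before to 50 bases from the annotated start of the coding sequence in R64, on the strand of the gene. Capitals mark 3 motifs searched on both strands: AGGGG, the core of the stress response element bound by Msn2 and Msn4; CTTCC, the core of the Gcr1 site of glycolytic genes; and GCGGGG or GTGGGG or CCGGGG or CTGGGG, the GC box of Mig1. Among 6001 windows of the same length over nuclear protein-coding genes, 21.6% held the first, 46.4% the second and 11.6% the third. HXK1 (chrVI:255000-255299, minus strand), HXK2 (chrVII:23685-23984, plus strand), GLK1 (chrIII:50588-50887, plus strand) and EMI2 (chrIV:1476427-1476726, minus strand) read as follows:

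HXK1: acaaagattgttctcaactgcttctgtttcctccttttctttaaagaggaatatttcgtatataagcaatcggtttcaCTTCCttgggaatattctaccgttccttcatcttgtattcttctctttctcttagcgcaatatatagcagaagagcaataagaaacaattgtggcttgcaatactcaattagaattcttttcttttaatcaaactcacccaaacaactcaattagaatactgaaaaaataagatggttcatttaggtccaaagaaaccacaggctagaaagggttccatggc
HXK2: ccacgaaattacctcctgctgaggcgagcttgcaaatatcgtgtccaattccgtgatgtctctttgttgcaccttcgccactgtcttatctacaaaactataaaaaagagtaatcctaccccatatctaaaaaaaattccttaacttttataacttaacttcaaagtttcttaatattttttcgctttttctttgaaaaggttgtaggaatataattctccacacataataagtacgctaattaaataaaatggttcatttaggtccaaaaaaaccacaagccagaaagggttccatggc
GLK1: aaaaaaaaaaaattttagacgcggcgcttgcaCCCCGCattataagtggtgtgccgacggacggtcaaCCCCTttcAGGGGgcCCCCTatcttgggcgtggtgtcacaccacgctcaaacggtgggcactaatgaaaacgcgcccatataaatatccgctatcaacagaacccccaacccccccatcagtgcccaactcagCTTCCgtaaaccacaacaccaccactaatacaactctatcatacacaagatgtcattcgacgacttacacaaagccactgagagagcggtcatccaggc
EMI2: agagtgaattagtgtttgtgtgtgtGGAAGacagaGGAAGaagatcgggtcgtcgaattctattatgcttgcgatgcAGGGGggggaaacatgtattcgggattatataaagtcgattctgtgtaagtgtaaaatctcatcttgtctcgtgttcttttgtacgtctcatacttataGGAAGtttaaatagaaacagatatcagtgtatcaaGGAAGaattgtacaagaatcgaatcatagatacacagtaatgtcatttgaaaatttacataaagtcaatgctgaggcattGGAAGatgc

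GLK1 held 3 matches to AGGGG, between 163 and 182 bases before the start, with 1 match to the Mig1 box and 1 to CTTCC. EMI2 held 1 match to AGGGG and 5 to CTTCC, the last of them inside the coding sequence. HXK1 held 1 match to CTTCC and HXK2 none to any of the 3. No matches overlapped in these windows. Of all 9 genes, 2 windows held AGGGG (GLK1 and EMI2), 5 held CTTCC (HXK1, GLK1, EMI2, PFK2 and FBA1) and 1 held the Mig1 box. Over all windows the shares were 21.6%, 46.4% and 11.6%, so the counts of the 9 were near those of all genes. A match describes letters only, and upstream sequence beyond 250 bases was not searched.

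PGI1 is the single phosphoglucose isomerase gene, with 12348 reads in ZTW1 against 13294 in ZGR3. It was 1.09-fold higher in ZGR3 (1.06 to 1.12), a log2 ratio of 0.12, and its reads covered 99.9% and 99.8% of the gene.

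The phosphofructokinase genes encode the alpha (PFK1) and beta (PFK2) subunits of 1 enzyme, and both were slightly higher in ZGR3 at an almost constant ratio. PFK1 was counted with 3774 reads in ZTW1 against 4314 in ZGR3, at 273 and 316 RPKM, and was 1.16-fold higher (1.11 to 1.21). PFK2 had 5245 and 5804 reads, at 391 and 437 RPKM, and was 1.12-fold higher (1.08 to 1.16). PFK1 made up 41.1% of the summed RPKM of the pair in ZTW1 (40.1 to 42.2) and 41.9% in ZGR3 (41.0 to 42.9). The ratio of PFK1 to PFK2 changed by 1.03-fold, with an interval from 0.975 to 1.09 that held 1. Their coding sequences are 64.8% identical, and the closest windows, from base 901 of PFK1 and base 877 of PFK2, differ at 6 positions, in capitals:

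PFK1: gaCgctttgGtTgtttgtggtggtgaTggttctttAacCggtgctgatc
PFK2: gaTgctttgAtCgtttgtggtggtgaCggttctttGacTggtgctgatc

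Phosphofructokinase had the lowest summed level of the 5 steps, 664 RPKM in ZTW1 and 753 in ZGR3, and the sum was 1.13-fold higher in ZGR3 (1.10 to 1.17). Both genes are long, with 2964 and 2880 bases of coding sequence, and longer genes ran higher in ZGR3 in general. Genes of such length had a running median log2 ratio of 0.09 and 0.08, beside 0.21 for PFK1 and 0.16 for PFK2, and with that trend subtracted the summed step was at 0.10.

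FBA1, the single aldolase gene and the most abundant member, was counted with 53211 reads in ZTW1 against 58732 in ZGR3. It was 1.12-fold higher in ZGR3 (1.10 to 1.13), a log2 ratio of 0.16, and by itself took 1.14% of the ZTW1 reads and 1.27% of the ZGR3 reads. The aldolase level was 15.9 times that of phosphofructokinase in ZTW1 and 15.7 times in ZGR3. FBA1 lies on the left arm of chromosome XI, where the surrounding genes were lower in ZGR3. Of the 10 genes compared on each side, 18 of 20 were below 0, with a median log2 ratio of −0.39. The adjacent genes were YKL061W at −0.55, from 63 and 42 reads, and MPE1, a messenger RNA 3′ end processing factor gene, at −0.48, from 232 and 163 reads. MSN4 and YKL050C were the 2 neighbours above 0, and both lay above FBA1 as well. With the neighbours' median subtracted FBA1 was at 0.55. Around the other 8 members the neighbours had medians between −0.15 and 0.04.

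**Figure D5:**
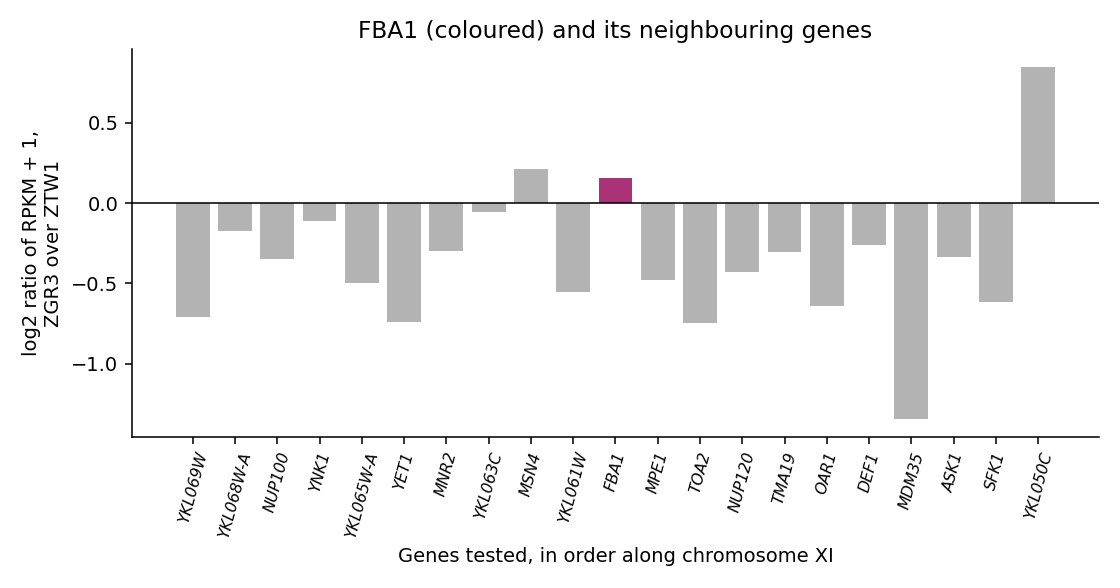
The log2 ratio of RPKM + 1, ZGR3 over ZTW1, for FBA1 (coloured bar) and the 10 genes compared on each side of it (grey bars), in gene order along chromosome XI; bars start at 0. FBA1 is at 0.16, and 18 of the 20 neighbours are below 0.

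TPI1, the single triose phosphate isomerase gene, was counted with 6329 reads in ZTW1 against 6131 in ZGR3. Its fold was 0.979 (0.945 to 1.01), so no difference could be detected at this depth, and its log2 ratio was −0.03. The level was 2.74 times that of phosphofructokinase in ZTW1 and 2.36 times in ZGR3. Of the 5 steps, aldolase was highest, glucose phosphorylation next and phosphofructokinase lowest in both libraries.

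Genes around upper glycolysis were taken from 8 lists with 33 genes, all of them compared. None of the 33 was 2-fold apart, 2 were at least 1.5-fold higher and 2 at least 1.5-fold lower, and their median log2 ratio was 0.05. Over all genes compared, 0.542% were 2-fold higher and 1.92% 2-fold lower. At 1.5-fold the shares were 3.63% and 7.39%, so the counts of the 33 were not far from those of all genes. Of the genes for fructose 2,6-bisphosphate, the activator of phosphofructokinase, the kinase gene PFK26 was 1.08-fold higher (1.01 to 1.15). The other kinase gene, PFK27, had 30 and 19 reads, too few to show a difference (0.640-fold, 0.341 to 1.18), and the phosphatase gene FBP26 was at 0.05. FBP1, the fructose 1,6-bisphosphatase of gluconeogenesis, works against phosphofructokinase. It was at 2604 RPKM in ZTW1 and 2081 in ZGR3, above the summed PFK1 and PFK2 level in both, and its fold was 0.799 (0.779 to 0.821).

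Among 6 genes that draw hexose phosphates into other pathways, the counting interval lay above 1 for 3 and below 1 for 3. Over all genes compared it lay above 1 for 17.9% and below 1 for 19.8%. All of the 6 except PGM1 had at least 677 reads in each library, above the median gene, and more reads give narrower intervals. The higher ones were PMI40, the mannose 6-phosphate isomerase gene, at 0.51, TPS1, for trehalose 6-phosphate synthesis, at 0.36, and PGM2, the major phosphoglucomutase gene, at 0.33. PGM1, the minor phosphoglucomutase gene, was at −0.61, from 262 and 167 reads, and was past 1.5-fold. ZWF1, which opens the pentose phosphate pathway, was at −0.13, and GFA1, which opens chitin precursor synthesis, at −0.23. PGM1 and GFA1 lie on chromosome XI, as FBA1 does, and the genes around them were not examined. Whether their lower values belong to a region was therefore not tested. At the triose phosphates, the glycerol phosphate dehydrogenase genes GPD1 and GPD2 were at 0.20 and 0.04.

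The 5 genes for transcription factors of glycolytic genes had a median of 0.12, and the interval of the fold excluded 1 for TYE7 alone. TYE7 was 1.32-fold higher in ZGR3 (1.17 to 1.48), from 518 and 675 reads. The intervals of GCR1, GCR2, RAP1 and REB1 held 1. Of 6 genes linked to glucose repression through Hxk2, MIG1, the repressor that acts with Hxk2, was counted with 66 reads in ZTW1 against 47 in ZGR3 and stood at −0.42 with an interval that held 1. The kinase gene SNF1 was at −0.09, and the phosphatase genes REG1 and GLC7 were at 0.01 and 0.15. Of the 6, the interval excluded 1 for GLC7 alone, at 1.11-fold higher in ZGR3 (1.01 to 1.23). Over all genes compared the interval lay above 1 for 17.9% and below 1 for 19.8%, so single genes in such short lists do not stand out. MIG2 was at −0.09 and the Mediator gene MED8 at 0.17.

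Lower glycolysis takes the triose phosphates on to pyruvate. Its 9 genes ran from −0.75 for PYK2, the minor pyruvate kinase gene, to 0.87 for the enolase gene ENO2, with a median of 0.25. Of these 9, 2 were at least 1.5-fold higher (ENO2 and CDC19, the main pyruvate kinase gene) and 1 was at least 1.5-fold lower (PYK2). Over all genes compared, 3.63% were 1.5-fold higher and 7.39% 1.5-fold lower. The other 6 of the 9 lay between −0.21 for GPM1 and 0.32 for TDH2. GPM1 also lies on chromosome XI, and its neighbours were not examined. The reads covered 92.5% of ENO2 in ZTW1 and 92.3% in ZGR3, and 84.6% and 84.7% of TDH2. Coverage of CDC19 was 99.7% and 99.8%. Whether reads can be placed among the paralogs of this list was not checked. The spread of lower against upper glycolysis was not tested.

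The pattern of HXK1 was set beside that of genes at a like level. Of 364 genes outside the 9 with a mean RPKM from 20% below to 25% above its own, the 3 with the nearest log2 ratio over the 2 libraries were OYE2 at 1.13, TRR2 at 0.78 and RPN10 at 0.73. They encode an NADPH oxidoreductase, a mitochondrial thioredoxin reductase and a proteasome subunit. OYE2, with 569 reads in ZTW1 against 1240 in ZGR3, was the only one of these 364 within 0.2 of HXK1.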

How the data were processed

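Poly(A) RNA of 1 ZTW1 and 1 ZGR3 culture was sequenced on an Illumina platform, per the labels' protocols. Each deposited table holds a read count per gene, of uniquely assigned reads per its header, and the counts add up to the header's total. The authors' RPKM scales them by listed length and by that total, and the deposited coverage is a percent of gene length. All 5659 lengths were multiples of 3, so they are coding lengths. Reads had been placed on sacCer2, per the submitters' processing notes. Aligner and strand handling were not given in the sources used here. Reads of overlapping or antisense genes therefore cannot be told apart.

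Genes absent from a table were set to 0. Ratios are log2 of RPKM + 1, for genes whose mean RPKM reached 1. Fold intervals are Clopper-Pearson intervals of the share of reads from ZGR3, intervals of shares and sums use the delta method, and intervals of changed ratios are exact conditional odds ratio intervals. Intervals cover counting error only, because each strain has 1 library. Reads carry no molecular identifiers, so repeated reads of the same molecule cannot be told apart, and the intervals may be too narrow. Gene order and sequences came from RefSeq assembly R64 (5653 IDs matched, 6 did not), and alignments were global. The 2-fold rule, the intervals of folds, shares and changed ratios, the length trend and the neighbours' median were tested on simulated data. Intervals of sums, the trimmed mean scaling and the sequence work were not tested in that way.

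The named genes are all 9 members, the 33 genes of the 8 lists, the nearest genes to the member furthest from 0, and the genes beside a member whose neighbours had a median further than 0.2 from 0. MSN4 and YKL050C were named after their values were seen. Members and lists were chosen with earlier results of these data known. Alternatives were pseudocounts of 0.1 and 5 RPKM, centring, trimmed mean of M values scaling (edgeR 4.0.16), subtraction of a running median over 401 genes ordered by length or of the neighbours' median, other filters, other fold rules, shares of reads, and ratios of RPKM + 1. Versions were R 4.3.3, biopython 1.88, scipy 1.17.1, pandas 2.3.3, numpy 2.4.6 and Python 3.11.15.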

Additional observations from a re-analysis of the deposited data

How the results depend on the processing

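The count of members at least 2-fold apart was 1 under the main setting and 7 of the 8 other settings of the ratio, and 0 with a pseudocount of 5 RPKM, where HXK1 was at 0.98. It was also 1 under a rule of 1.5-fold and the smaller rule tried. Over 8 settings HXK1 ran from 0.98 to 1.15. With the coding length trend subtracted, the median of the members was 0.079, the phosphofructokinase sum 0.10 and triose phosphate isomerase 0.000874. Scaling by the trimmed mean of M values put the aldolase step at 0.18. With the neighbours' median subtracted, aldolase was at 0.55 and triose phosphate isomerase at 0.040. Subtraction of the length trend or of the neighbours' median put triose phosphate isomerase on the other side of 0 from the reported value. The counting interval of its reported fold held equality. GLK1 stayed between −0.13 and −0.10, and HXK2, EMI2 and PGI1 moved by less than their counting intervals, under each of the 8 settings. Shares of reads in place of RPKM, and ratios of RPKM + 1, moved no share or ratio beyond its interval. Differences of HXK2, with the fewest reads, are limited by depth. No paired analysis was possible because each strain has 1 library.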

Other observations

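The deposited tables annotate 33 of the genes compared with the process term glucose catabolic process, and all 9 members carry it. The 24 that are not members had a median log2 ratio of 0.07 and ran from −0.82 to 1.41. Of them, 1 gene was at least 2-fold higher and none 2-fold lower, beside 0.542% and 1.92% of all genes compared.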
